A study of Mus musculus with 19 samples.

Results

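The genes described here are those whose signal differed in the same direction between the AD + OPP and the AD + DW group in the livers, spleens and hearts of mice on an atherogenic diet (AD). OPP stands for oil palm phenolics, a water-soluble phenolic extract of the oil palm fruit, and DW for distilled water. A probe was tested if its detection p-value was under 0.01 on all 19 arrays, and it was taken as a member if its within-organ log2 difference, AD + OPP minus AD + DW, had the same sign in all 3 organs. Of 3529 tested probes, 994 were members (28.2%), 432 higher in the AD + OPP group (12.2%) and 562 lower (15.9%). They stood for 851 of the 14776 named genes on the array, and 481 of the tested probes had no gene symbol and are left unnamed. The shared sign is how the members were chosen and is given as a description.

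All mice were male BALB/c mice labelled as 12 weeks of age, and all received the atherogenic diet for 6 weeks, so no group on a normal diet enters the comparison. The AD + OPP group drank OPP at 1500 ppm gallic acid equivalents and the AD + DW group drank distilled water. There were 3 arrays of livers, 3 of spleens and 3 of hearts from the AD + OPP group, against 4 of livers, 3 of spleens and 3 of hearts from the AD + DW group. The labels do not say whether the 3 organs came from the same mice, nor which animal each array stands for, so the p-values measure the spread between these arrays. Signals were normalized within each organ, hence a level in one organ is not set against a level in another.

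The arrays detected 5863 to 7576 probes each, and correlated within their organ with r from 0.94 to 0.967 in livers, 0.897 to 0.97 in spleens and 0.964 to 0.976 in hearts. Hepatocyte markers were detected in livers (10 of 11 genes on all liver arrays) and cardiomyocyte markers in hearts (9 of 10), as labelled. The heart array of AD + DW replicate 3 also detected 7 of the 11 hepatocyte genes, against 3 or 4 on the other heart arrays. The spleen array of AD + DW replicate 3 stood apart, with 40.0% of its signal in its 100 brightest probes (27.3% on the lowest array). The mean log2 signal of 5 pancreas acinar genes was 14.03, 5.5 and 4.88 in spleens of the AD + OPP group, against 14.51, 5.26 and 15.9 in spleens of the AD + DW group, so they were high on 3 spleen arrays, 1 of the AD + OPP and 2 of the AD + DW group. They were also high on 1 liver array, AD + DW replicate 3, with a mean of 11.47. The other livers of that group had 5.15, 5.31 and 5.23, and those of the AD + OPP group 4.8, 4.59 and 5.73. None of these 5 genes was among the tested probes.

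An atherogenic diet, rich in cholesterol and saturated fat, inflames the liver, and the acute phase proteins that hepatocytes then secrete, together with circulating leukocytes and red cells, reach every perfused organ. Antigen presentation by MHC class I molecules occurs in most nucleated cells, whereas MHC class II molecules are carried mainly by B cells, macrophages and dendritic cells. Glutathione reductase and its relatives keep the thiol pool of the cell reduced.

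The first question was how far the OPP difference was shared. Over the 3529 tested probes, the differences in livers and spleens correlated with r = 0.126, those in livers and hearts with r = 0.109 and those in spleens and hearts with r = 0.08. These are correlations across probes of 3 sets of arrays that share no array, and probes are not independent replicates. The differences had an SD over probes of 0.34 in spleens, 0.251 in livers and 0.167 in hearts, and of the members 51.5% had their largest difference in spleens, 36% in livers and 12.5% in hearts. In most members the organ with the smallest difference moved little: the median of that smallest difference was 0.048 on the log2 scale for the higher and 0.053 for the lower members. Only 25 higher and 29 lower members differed by more than 0.2 in every organ, and 8 higher and 6 lower members by more than 0.3.

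**Figure D1:**
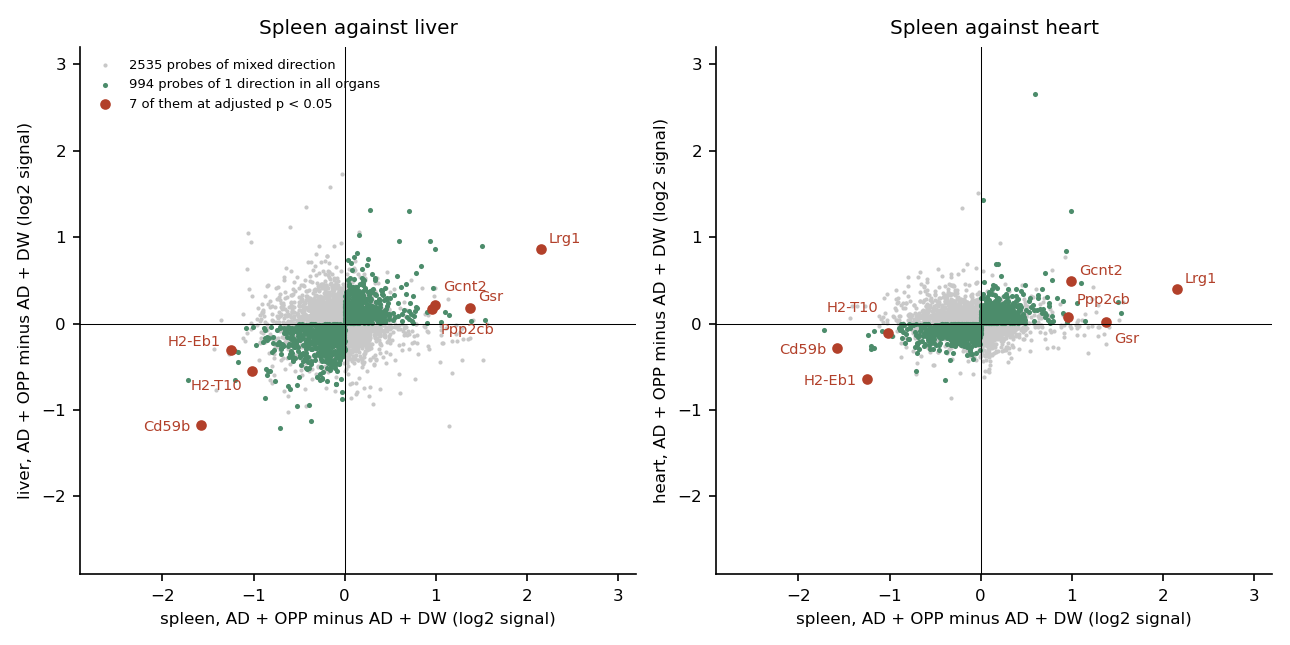
Difference between the AD + OPP and the AD + DW group on the log2 signal scale for each of the 3529 tested probes, with spleen on the horizontal axis and liver (left) or heart (right) on the vertical axis. Members, in green, lie by definition in the lower left and upper right quadrants, and the 7 genes past the adjusted threshold, in red, all lie farther out along the spleen axis than along the other axis.

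The mean of the 3 within-organ differences was tested with limma, 1 mean for each of the 6 groups, and Benjamini-Hochberg adjustment over all tested probes. At an adjusted p under 0.05, 7 probes were called (0.198% of those tested), 4 higher (0.113%) and 3 lower (0.085%) in the AD + OPP group. They were Lrg1, Gsr, Ppp2cb and Gcnt2, which were higher, and H2-Eb1, H2-T10 and Cd59b, which were lower. All 7 had the same direction in the 3 organs, and all 7 had their largest difference in spleens. At an unadjusted p under 0.01 there were 154 probes (4.36%), 82 higher (2.32%) and 72 lower (2.04%). Of these, 108 were members (3.06% of those tested), 53 higher (1.5%) and 55 lower (1.56%).

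When each organ was asked by itself, none of the 3529 probes (0%) passed an unadjusted p under 0.05 in all 3 organs with 1 direction, and for none (0%) did the AD + OPP and AD + DW arrays fail to overlap in all 3 organs. Taken singly, 17.7% of the probes passed an unadjusted p under 0.05 in spleens, 10.1% in livers and 1.13% in hearts, and 3.85% passed the adjusted threshold in spleens. Groups did not overlap for 19.7% of the probes in spleens, 8.93% in livers and 7.08% in hearts. Without the spleen arrays, no probe passed the adjusted threshold for the mean over livers and hearts (smallest adjusted p = 0.481 with limma, 38 probes at an unadjusted p under 0.01). Where differences between organs entered the residual, in an additive fit of organ and treatment, no probe passed either (smallest adjusted p = 0.208 with limma, 105 probes at an unadjusted p under 0.01).

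Lrg1 encodes leucine-rich alpha-2-glycoprotein, a secreted protein made by hepatocytes in the acute phase and stored in neutrophil granules. Its signal was 38352, 44815 and 26554 in livers of the AD + OPP group, against 13779, 17003, 18141 and 35522 in livers of the AD + DW group. In spleens it was 6142, 4632 and 5918 in the AD + OPP group, against 768, 1869 and 1334 in the AD + DW group, and in hearts 1705, 1411 and 1347 in the AD + OPP group, against 761, 1214 and 1543 in the AD + DW group. The groups did not overlap in spleens and overlapped in livers, through AD + DW replicate 4, and in hearts. The mean difference was 1.14 ± 0.19 (SE, adjusted p = 0.0271, limma), made up of 0.86 in livers, 2.15 in spleens and 0.40 in hearts. The mean log2 signal of 14 neutrophil genes was 12.48 to 12.75 in AD + OPP spleens, against 10.04 to 11.65 in spleens of the AD + DW group, and all 14 were higher; its part in the Lrg1 difference was not tested.

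Gsr encodes glutathione reductase, which returns oxidized glutathione to its reduced form. In spleens its signal was 1904, 1764 and 1705 in the AD + OPP group, against 526, 931 and 675 in the AD + DW group. In livers it was 1333, 1366 and 1195 in the AD + OPP group, against 1169, 1029.9, 1258 and 1118 in the AD + DW group, and in hearts 400.4, 414 and 453 in the AD + OPP group, against 406, 454 and 391 in the AD + DW group. The groups were separate in spleens only. Averaged over organs, the difference was 0.53 ± 0.09 (SE, adjusted p = 0.0271, limma), but the within-organ differences of 0.18 in livers, 1.37 in spleens and 0.02 in hearts differed from each other (moderated F test, adjusted p = 0.00902). Of 13 tested probes whose OPP difference varied between organs at an adjusted p under 0.05, Gsr was the only member (0.368% and 0.0283% of those tested).

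Ppp2cb encodes a catalytic subunit of protein phosphatase 2A, which removes phosphate from serine and threonine residues of many proteins. Its signal was 1080.3, 1128 and 1167 in spleens of the AD + OPP group, against 527, 686 and 537 in spleens of the AD + DW group. In livers it was 715, 836 and 733 in the AD + OPP group, against 662, 685, 661 and 688 in the AD + DW group, so the groups did not overlap in spleens or livers, whereas in hearts they did, with 513, 488 and 662 in the AD + OPP group, against 555, 483 and 527 in the AD + DW group. The mean difference was 0.40 ± 0.08 (SE, adjusted p = 0.0336, limma), with 0.17 in livers, 0.96 in spleens and 0.08 in hearts. Ppp2cb and Gsr lie close together on mouse chromosome 8, with 1 protein-coding gene, Ubxn8, annotated between them in the RefSeq table of GRCm38.p6.

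Gcnt2 encodes a glucosaminyltransferase that adds branches to the sugar chains of cell surface glycoproteins. Its signal was 654, 472 and 659 in spleens of the AD + OPP group, against 313, 347 and 238 in those of the AD + DW group, and 417, 377 and 408 in hearts of the AD + OPP group, against 233, 369 and 270.1 in those of the AD + DW group. In livers the groups overlapped, with 588, 768 and 619.8 in the AD + OPP group and 483, 552, 521 and 736 in the AD + DW group. Its mean difference was 0.56 ± 0.11 (SE, adjusted p = 0.0435, limma), with 0.21 in livers, 0.99 in spleens and 0.49 in hearts.

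H2-Eb1 encodes the beta chain of the MHC class II molecule E, which presents peptides to helper T cells. Its signal was 1523, 2584 and 1792 in spleens of the AD + OPP group, against 4611, 3878 and 5228 in spleens of the AD + DW group. In hearts it was 117, 162 and 127 in the AD + OPP group, against 278, 188 and 173 in the AD + DW group, and in livers 237, 171 and 233 in the AD + OPP group, against 245, 199, 294 and 327 in the AD + DW group. All arrays of the AD + OPP group were below those of the AD + DW group in spleens and hearts, and the groups overlapped in livers. The mean difference was -0.73 ± 0.13 (SE, adjusted p = 0.03, limma), with -0.31 in livers, -1.24 in spleens and -0.64 in hearts.

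H2-T10 encodes a nonclassical MHC class I molecule of the T region of the same complex on chromosome 17. Its signal was 391, 369 and 378 in livers of the AD + OPP group, against 644, 425, 588 and 592 in livers of the AD + DW group. In spleens it was 218, 222 and 193 in the AD + OPP group, against 406, 383 and 492 in the AD + DW group, and in hearts 202, 201 and 133 in the AD + OPP group, against 186, 160.1 and 225 in the AD + DW group. The groups were separate in livers and spleens and overlapped in hearts. Over the organs the difference averaged -0.56 ± 0.10 (SE, adjusted p = 0.0332, limma), with -0.55 in livers, -1.01 in spleens and -0.11 in hearts. Genes of the T region resemble each other closely, so the probe may also bind transcripts of related genes.

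Cd59b encodes an inhibitor of the membrane attack complex of complement, anchored to the cell surface by a lipid. Its signal was 174, 132 and 224 in livers of the AD + OPP group, against 634, 224, 649 and 246 in livers of the AD + DW group. In spleens it was 61.7, 83.2 and 68.3 in the AD + OPP group, against 228, 219 and 186 in the AD + DW group, and in hearts 292, 279 and 263 in the AD + OPP group, against 459.5, 232 and 358 in the AD + DW group. The groups were separate in spleens only, and the AD + DW livers fell into a high and a low pair. The mean difference was -1.01 ± 0.20 (SE, adjusted p = 0.0399, limma), with -1.17 in livers, -1.57 in spleens and -0.28 in hearts.

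**Figure D2:**
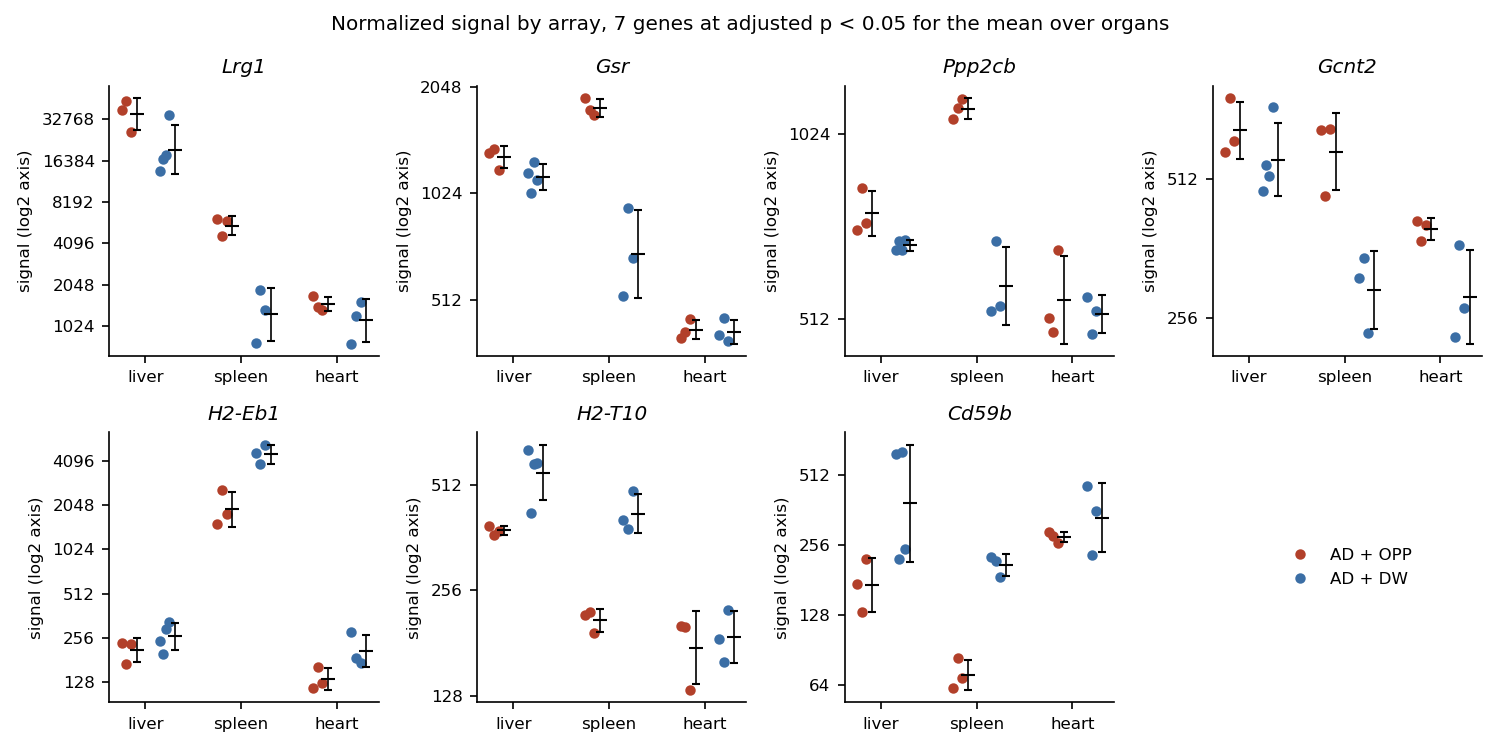
Normalized signal on a log2 axis for the 7 genes at adjusted p under 0.05, by organ; each point is 1 array, red for the AD + OPP group (left in each organ) and blue for the AD + DW group, and black marks give the mean ± SD of the log2 signals. The separation of the groups is widest in spleens for every gene shown, and narrow or absent in hearts for Gsr, Ppp2cb and H2-T10.

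These 7 calls depended on single arrays and on the spleen. The sign of each was kept in every fit tried, but each was called in only 6 (Cd59b and Gcnt2) to 10 (Lrg1 and H2-Eb1) of the 19 fits that left out 1 array. Without the spleen arrays the mean difference over livers and hearts was 0.63 for Lrg1 and -0.47 for H2-Eb1 (adjusted p = 0.78 for each, limma), and 0.10 for Gsr (adjusted p = 0.875, limma). Without spleen replicate 1 of the AD + OPP group and spleen replicate 3 of the AD + DW group together, the spleen arrays highest in pancreas genes within their groups, in a fit added after seeing the data, no probe was called (smallest adjusted p = 0.107, limma).

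Other genes of antigen presentation had lower means over the organs, most of all in spleens. Of the 4 tested genes of MHC class II presentation, 4 had a lower mean in the AD + OPP group, 2 of them in all 3 organs, and 1 was called; the median difference was -0.35, against -0.02 over all tested probes. By organ this median was -0.25 in livers, -1.07 in spleens and 0.08 in hearts, and 2 of the 4 genes did not keep 1 direction. Cd74, the invariant chain that guides class II molecules through the cell, had a signal of 1616, 3481 and 2177 in spleens of the AD + OPP group, against 6024, 4387 and 6088 in spleens of the AD + DW group. Its mean difference was -0.57 ± 0.16 (SE, adjusted p = 0.135, limma), with -0.33 in livers, -1.24 in spleens and -0.14 in hearts. Of 13 tested interferon and MHC class I genes, 12 had a lower mean in the AD + OPP group. Of these, 7 were lower in all 3 organs and 1 was called. Among all tested probes, 15.9% were lower in all 3 organs and 0.198% were called. The median difference of the 13 genes was -0.24, with -0.35 in livers, -0.56 in spleens and -0.04 in hearts. Ifitm1, also induced by interferon but not in this list, went the other way, with 0.46 in livers, 0.67 in spleens and 0.39 in hearts. H2-T23, which encodes the nonclassical class I molecule Qa-1, had a mean difference of -0.33 from 1 probe, a member with -0.04 in hearts, and -0.31 from another, which was no member with 0.02 in hearts. Psmb10, a subunit of the immunoproteasome, had a mean difference of -0.35 from each of its 2 probes, and neither gene was called.

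Markers of lymphocytes, plasma cells and macrophages moved with these genes in spleens. The mean log2 signal of 8 B cell genes was 6.63 to 7.22 in AD + OPP spleens, against 7.84 to 8.38 in spleens of the AD + DW group, with 7 of the 8 lower, and that of 10 T and natural killer cell genes was 6.43 to 7.03 in AD + OPP spleens, against 7.27 to 7.79 in those of the AD + DW group, with 9 of the 10 lower. Of 10 macrophage genes, 9 were lower and 0 higher in spleens of the AD + OPP group, with a mean log2 signal of 6.92 to 7.39 in that group, against 7.21 to 8.2 in the AD + DW group. All 3 plasma cell genes were lower there, with 9.19 to 9.38 in the AD + OPP group, against 9.59 to 10.17 in the AD + DW group. The macrophage mean differed by -0.01 in livers and 0.31 in hearts. In livers and hearts none of the 8 B cell genes was detected on all arrays. In spleens 2 of the 8 B cell genes were detected on no array. The same held there for 3 of the 10 T and natural killer cell genes and 3 of the 10 macrophage genes. Summed signals of the B cell genes were 1777 to 2407 in AD + OPP spleens, against 4079 to 5626 in those of the AD + DW group. Fewer cells of a type and less RNA per cell cannot be told apart in whole organs, and the part of these cells in the antigen presentation genes was not tested.

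The promoters of H2-Eb1 and H2-T23 are shown because class I and class II genes share a CCAAT element close to their start sites. The windows are the 200 bases before the RefSeq start site in GRCm38.p6, which is the sequence of another strain than BALB/c, written 5′ to 3′ on the gene's strand. Capitals mark the Y box letters ATTGG on either strand and, in H2-T23, an interferon-stimulated response element. H2-Eb1 (chr17:34305667-34305866, plus strand) held ATTGG at 2 places, starting at -59 and -35, and H2-T23 (chr17:36032702-36032901, minus strand) held it at -52 and the interferon element at -124. On either strand, 29.3% of 32851 such windows held ATTGG and 2.27% held the interferon element, so the matches are a description only.
H2-Eb1: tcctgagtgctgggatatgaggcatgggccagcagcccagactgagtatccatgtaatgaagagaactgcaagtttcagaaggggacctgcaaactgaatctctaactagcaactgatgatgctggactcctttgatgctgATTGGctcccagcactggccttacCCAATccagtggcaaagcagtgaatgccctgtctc
H2-T23: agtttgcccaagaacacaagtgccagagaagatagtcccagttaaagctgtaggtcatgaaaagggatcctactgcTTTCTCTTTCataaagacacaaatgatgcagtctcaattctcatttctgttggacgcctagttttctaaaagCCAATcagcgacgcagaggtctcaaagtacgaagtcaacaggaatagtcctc

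Ranked by the difference in the organ where it was smallest, Serpina3n, Fkbp5, S100a9 and Socs3 led the higher members, and none of them passed the adjusted threshold. Of the called genes, Lrg1 (0.40 in hearts) and H2-Eb1 (-0.31 in livers) also differed by more than 0.3 in every organ. Serpina3n encodes a serine protease inhibitor of the acute phase. Its signal was 41507, 61115 and 20892 in livers of the AD + OPP group, against 16200.3, 17400.0, 16876 and 38089 in livers of the AD + DW group. In spleens it was 657, 607 and 1393 in the AD + OPP group, against 314, 249.3 and 897 in the AD + DW group, and in hearts 2242, 1797 and 874 in the AD + OPP group, against 289, 1018 and 802 in the AD + DW group. A single high array of the AD + DW group overlapped in livers and spleens, and in hearts AD + DW replicate 2 lay above the lowest AD + OPP array. Averaged over organs, the difference was 1.05 ± 0.31 (SE, adjusted p = 0.155, limma), with 0.86 in livers, 0.99 in spleens and 1.301 in hearts.

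Fkbp5, a co-chaperone that restrains the glucocorticoid receptor and is itself induced by it, had the most even difference of these genes, 0.95 in livers, 0.94 in spleens and 0.84 in hearts. Its signal was 404, 387 and 467 in hearts of the AD + OPP group, against 98.5, 294 and 442 in hearts of the AD + DW group, and 288, 361 and 460.3 in spleens of the AD + OPP group, against 99.6, 134 and 503 in spleens of the AD + DW group. In livers it was 2088, 1496 and 492 in the AD + OPP group, against 294, 1005, 371 and 1158 in the AD + DW group. The groups overlapped in each organ, through 2 of the 4 AD + DW arrays in livers and 1 of 3 in spleens and in hearts, and the mean difference of 0.91 ± 0.37 did not pass (SE, adjusted p = 0.304, limma). Socs3, which encodes a feedback inhibitor of cytokine signalling through STAT3, had a mean difference of 0.86 ± 0.37 (SE, adjusted p = 0.345, limma), with 1.297 in livers, 0.70 in spleens and 0.59 in hearts. Its signal in spleens was 309, 295 and 546 in the AD + OPP group, against 234, 212 and 233 in the AD + DW group, and the groups overlapped in livers and hearts.

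S100a9, a calcium-binding protein abundant in neutrophils, had the largest mean difference of these genes and the widest spread. Its signal in hearts was 8609.9, 2061 and 2409 in the AD + OPP group, against 119, 5759 and 251 in the AD + DW group, and in livers 9997, 9002 and 112 in the AD + OPP group, against 259, 184, 2804 and 11547 in the AD + DW group. The mean difference of 1.40 ± 0.92 (SE, adjusted p = 0.565, limma) was within the spread between arrays, although in spleens the groups were separate, with 26281, 26796 and 26149 in the AD + OPP group, against 13226, 24428 and 16636 in the AD + DW group. The liver arrays high in S100a9, AD + OPP replicates 1 and 2 and AD + DW replicate 4, were also those high in Serpina3n and Socs3, and their mean log2 signal of 14 neutrophil genes was 9.56, 9.22 and 9.54, against 5.02 in AD + OPP replicate 3 with 4.9, 4.95 and 7.55 in AD + DW replicates 2, 1 and 3. In hearts the same mean was 6.13 to 7.75 in the AD + OPP group, against 4.38 to 7.21 in the AD + DW group. Of the 14 genes, 2 were detected on all liver arrays and 2 on none. In hearts 2 were detected on all arrays and 4 on none, so the liver and heart means rest partly on background signal. The part of neutrophils in these differences was not tested.

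Of 12 tested glucocorticoid targets, 10 had a higher mean in the AD + OPP group. Among them, 4 were higher in all 3 organs, against 12.2% of all tested probes. The median difference was 0.27 (0.15 in livers, 0.09 in spleens and 0.30 in hearts). None was called, and none passed an unadjusted p under 0.01. Cebpb, a transcription factor of the acute phase and of myeloid cells, differed by 0.49 in the mean (adjusted p = 0.228, limma), with -0.05 in livers, 1.29 in spleens and 0.21 in hearts, and was thus no member. Ifitm1, an interferon-induced membrane protein, differed by 0.51 ± 0.13 (SE, adjusted p = 0.123, limma), with 0.46 in livers, 0.67 in spleens and 0.39 in hearts. Rbm3, a cold-inducible RNA-binding protein, differed by 0.44, with 0.46 in livers, 0.19 in spleens and 0.69 in hearts (adjusted p = 0.535, limma).

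The promoters of Serpina3n and Socs3 are shown as those of members that were higher in all 3 organs and whose regulators are well known, and that of Alas2 as that of a member that was lower in all 3. Capitals mark the letters ACANNNTGT of a glucocorticoid response element in Serpina3n (chr12:104406508-104406707, plus strand), TTCNNNGAA of a STAT site in Socs3 (chr11:117969367-117969566, minus strand) and AGATAA of a GATA site, on the opposite strand, in Alas2 (chrX:150547217-150547416, plus strand). They start at -76, -154 and -86 from the start site. On either strand, 4.51%, 5.49% and 7.8% of all windows of this length held them, and no binding was measured here.
Serpina3n: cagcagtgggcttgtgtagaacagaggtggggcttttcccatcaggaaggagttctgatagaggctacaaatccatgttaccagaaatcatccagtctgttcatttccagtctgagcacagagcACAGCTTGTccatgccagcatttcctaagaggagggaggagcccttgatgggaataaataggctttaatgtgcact
Socs3: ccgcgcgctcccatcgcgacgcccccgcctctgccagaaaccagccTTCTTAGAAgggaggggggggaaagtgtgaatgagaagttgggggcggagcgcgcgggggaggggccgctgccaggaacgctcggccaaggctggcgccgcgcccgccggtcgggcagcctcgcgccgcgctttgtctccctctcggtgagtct
Alas2: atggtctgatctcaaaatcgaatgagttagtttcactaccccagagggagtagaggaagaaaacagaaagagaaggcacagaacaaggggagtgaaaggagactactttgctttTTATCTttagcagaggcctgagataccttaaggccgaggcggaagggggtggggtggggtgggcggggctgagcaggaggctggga

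Among the lower members, Hbb-bt, Alas2, Tpt1 and Sh3glb1 had the largest difference in the organ where it was smallest. Hbb-bt encodes a beta chain of adult haemoglobin. Its signal was 498, 192 and 214 in livers of the AD + OPP group, against 396, 799, 818 and 619 in livers of the AD + DW group. In spleens it was 1379.7, 1714 and 1017 in the AD + OPP group, against 1874, 1948 and 2911 in the AD + DW group, and in hearts 1105, 1018 and 882 in the AD + OPP group, against 839, 1768 and 2099.8 in the AD + DW group. The groups were separate in spleens, and 1 array overlapped in livers and in hearts. Its mean difference was -0.82 ± 0.21 (SE, adjusted p = 0.121, limma), with -1.21 in livers, -0.71 in spleens and -0.55 in hearts. The adult beta globin genes of the mouse resemble each other, so the probe may also bind transcripts of a related gene.

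Alas2 encodes the first enzyme of haem synthesis in red cell precursors. Its mean difference was -0.66 ± 0.18 (SE, adjusted p = 0.127, limma), with -0.95 in livers, -0.39 in spleens and -0.65 in hearts. Its signal in hearts was 1035, 1292 and 1048 in the AD + OPP group, against 1269, 2197 and 1942 in the AD + DW group, and in livers 834, 436 and 1251 in the AD + OPP group, against 1134, 1817, 2007 and 1163 in the AD + DW group. The groups overlapped in both organs, and in spleens as well. Of 11 red cell genes, 3 were higher and 7 lower in livers of the AD + OPP group, and 1 was higher and 10 lower in spleens. No array detected 6 of the 11 in livers, 1 in spleens and 7 in hearts, so liver and heart counts rest partly on background signal. The summed signal of the 11 genes was 13607 to 35200 in livers of the AD + OPP group, against 19226 to 62314 in the AD + DW group. It was 91777 to 100325 in AD + OPP spleens, against 107057 to 168356 in those of the AD + DW group. In hearts 4 were higher and 5 lower, with a sum of 47153 to 58155 in the AD + OPP group, against 52631 to 74563 in the AD + DW group. The amount of blood in each organ was not measured, and its part in these differences was not tested. Tpt1, a small cytosolic protein tied to growth, differed by -0.46 (adjusted p = 0.163, limma) and Sh3glb1, a membrane-bending protein of mitochondria and autophagosomes, by -0.37 (adjusted p = 0.304, limma).

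**Figure D3:**
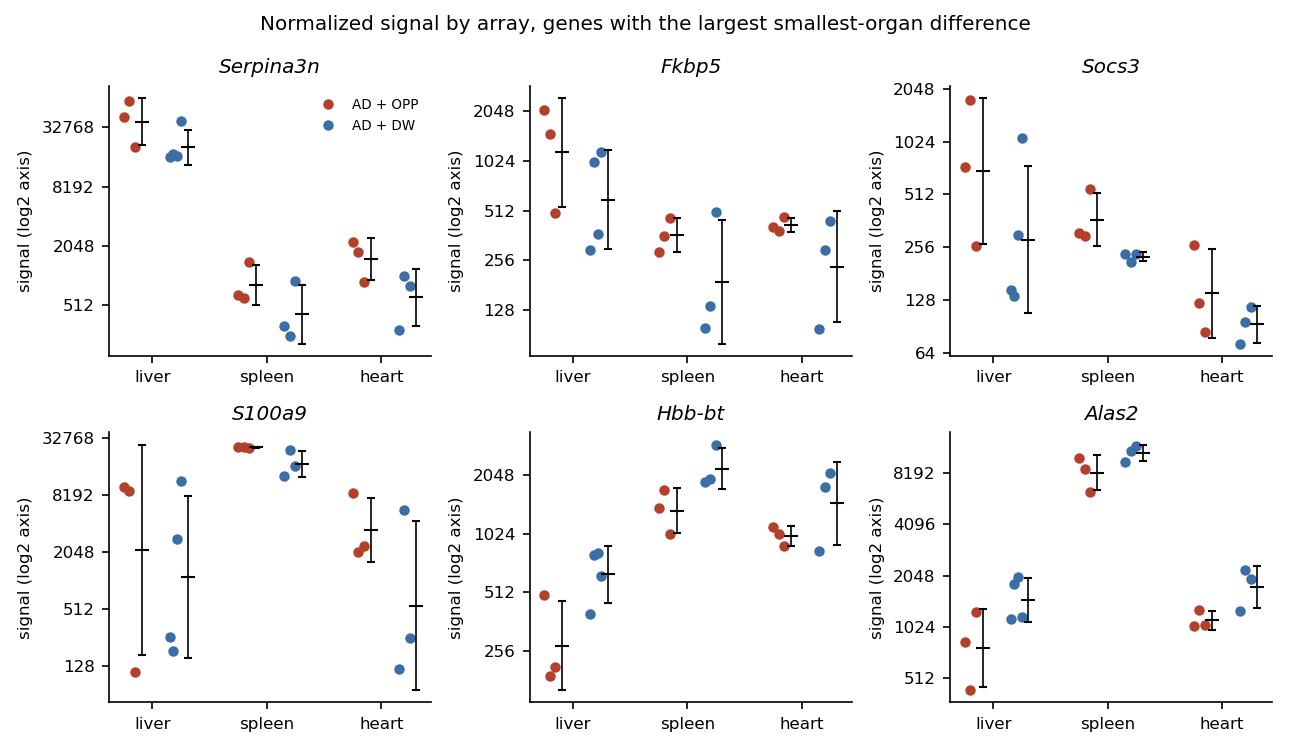
Normalized signal on a log2 axis for 6 of the 8 members with the largest difference in the organ where it was smallest; each point is 1 array, red for the AD + OPP group (left in each organ) and blue for the AD + DW group, and black marks give the mean ± SD of the log2 signals. Serpina3n, Fkbp5, Socs3 and S100a9 were higher and Hbb-bt and Alas2 lower on average in each organ, while single arrays of the groups overlapped in most panels.

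Redox genes other than Gsr were mixed in direction. Of 32 tested antioxidant and glutathione genes, 13 had a higher and 19 a lower mean in the AD + OPP group. Among them, 3 were higher and 6 lower in all organs, against 12.2% and 15.9% of all tested probes. The median difference was -0.08, with -0.08 in livers, -0.355 in spleens and 0.04 in hearts. Over all tested probes the median in spleens was -0.06. Prdx2, a peroxidase abundant in red cells, differed by -0.24 (adjusted p = 0.154, limma), with -0.13 in livers, -0.58 in spleens and -0.01 in hearts. Mgst1, a microsomal glutathione transferase, was no member: its signal was 609.5, 749.5 and 808 in spleens of the AD + OPP group, against 230.0, 434 and 534 in the AD + DW group, and 1477, 893 and 981 in hearts of the AD + OPP group, against 473, 704 and 787 in the AD + DW group, both without overlap. In livers it was 37077, 29466 and 38933 in the AD + OPP group, against 49489, 37344, 44341 and 40733 in the AD + DW group, which gave differences of 0.93 in spleens, 0.77 in hearts and -0.29 in livers. Gpx1, Gstm1 and Tkt, which encode a glutathione peroxidase, a glutathione transferase and an enzyme of the pentose phosphate pathway, also had mixed directions, with mean differences of -0.11, 0.19 and 0.22. G6pdx, Pgd and Mgst2 were not among the tested probes.

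Genes of the actin cytoskeleton had mostly higher means, and those of glycolysis were higher in spleens. Of 20 tested actin genes, 16 had a higher mean in the AD + OPP group. Among them, 8 were higher in all 3 organs, against 12.2% of all tested probes. The median difference was 0.13 (0.02 in livers, 0.27 in spleens and 0.11 in hearts). Arpc1b, a subunit of the Arp2/3 complex that branches actin filaments, differed by 0.49 from 1 probe (adjusted p = 0.107) and 0.32 from another (adjusted p = 0.332, both limma). Arpc4, another subunit, differed by 0.38 (adjusted p = 0.123, limma), with 0.34 in livers, 0.67 in spleens and 0.12 in hearts, and Zyx, a focal adhesion protein, by 0.36 with -0.02 in livers. Of 9 tested genes of glycolysis and hypoxia, 5 had a higher mean and 4 a lower one, 3 and 2 of them in all organs, and the median was 0.27 over the mean, but 0.03 in livers, 0.62 in spleens and -0.02 in hearts. Ldha, which makes lactate from pyruvate, differed by 0.40 (adjusted p = 0.127, limma), with 0.42 in livers, 0.62 in spleens and 0.15 in hearts. Gapdh differed by 0.38, 0.28 and 0.26 in its 3 probes, and the first of these was largest in spleens (0.94, against 0.18 in livers and 0.01 in hearts). Pgk1 differed by 0.34, with 0.10 in livers, 0.92 in spleens and -0.02 in hearts, and like Zyx was no member.

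Over all tested probes, 1943 of 3529 had a lower mean in the AD + OPP group, and 15.9% were lower in all 3 organs. Of 14 tested genes of fatty acid oxidation, 12 had a lower mean in the AD + OPP group, 8 of them in all 3 organs, with a median of -0.12 (-0.14 in livers, -0.18 in spleens and -0.05 in hearts). Hadhb, a subunit of the mitochondrial trifunctional protein, differed by -0.24 (adjusted p = 0.163, limma), and its signal of 15396, 18074 and 18016 in hearts of the AD + OPP group lay below the 18936, 18525 and 19515 of the AD + DW group. It was also separate in spleens, with 1789, 1759 and 1691 in the AD + OPP group against 1984, 2146 and 2445 in the AD + DW group, and overlapped in livers. Acadl, an acyl-CoA dehydrogenase, differed by -0.33, with -0.42 in livers, -0.32 in spleens and -0.25 in hearts, and Eci2, an enoyl-CoA isomerase, by -0.34; neither passed (adjusted p = 0.36 and 0.343, limma). Of 24 tested subunits of respiratory complex I, 17 had a lower mean, 9 of them in all organs, and of 36 genes listed for complexes II to V, 24 and 8. The medians were -0.07 and -0.04, against -0.02 over all tested probes. In hearts they were -0.01 and 0.02, in spleens -0.06 and -0.01, and in livers -0.13 and -0.15. Ndufc2 (-0.31) and Atp5k (-0.33) had the smallest p among the lower ones. Among the higher ones, Ndufv3 (0.18) had the smallest p in complex I, with -0.14 in livers, 0.76 in spleens and -0.08 in hearts. In the list of complexes II to V it was Cox15 (0.22), which serves assembly and is no subunit, with 0.33 in livers, 0.18 in spleens and 0.16 in hearts. The subunit Atp5b (0.31) followed, with -0.08 in livers, 0.90 in spleens and 0.10 in hearts. Isca1, which helps assemble iron-sulfur clusters, differed by -0.27 (adjusted p = 0.114, limma), and Cisd1, an iron-sulfur protein of the outer mitochondrial membrane, by -0.38 (adjusted p = 0.121, limma), each with groups that did not overlap in livers and spleens.

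**Figure D4:**
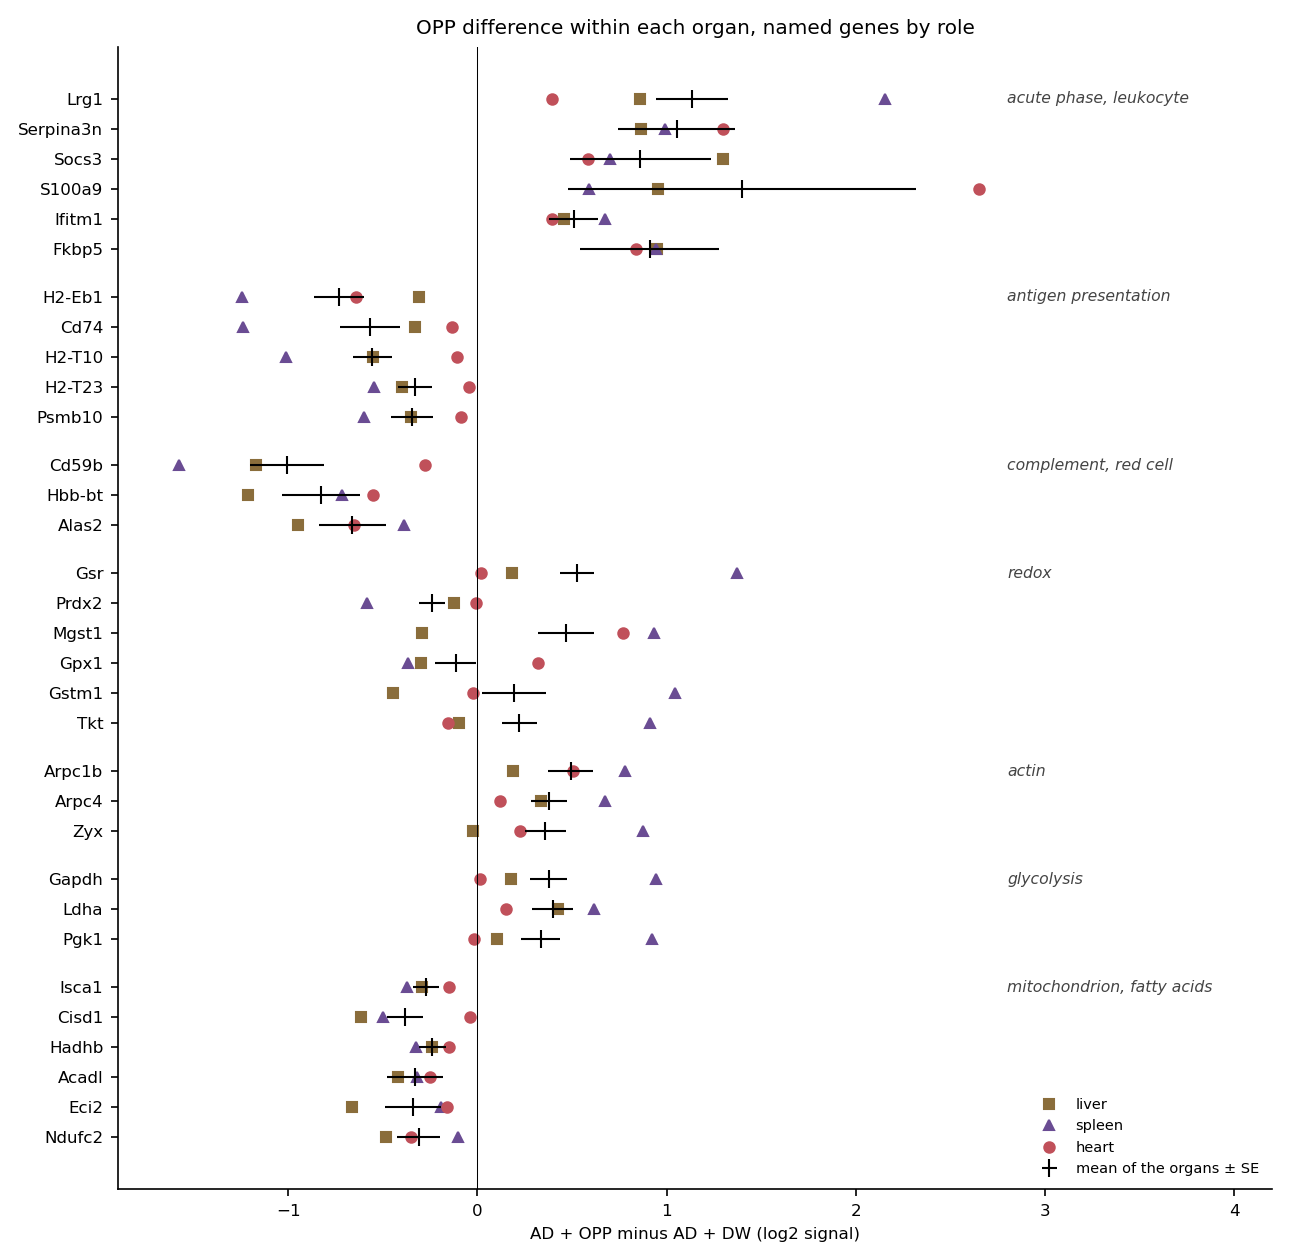
Difference between the AD + OPP and the AD + DW group on the log2 signal scale within livers (squares), spleens (triangles) and hearts (circles) for named genes grouped by role, with the mean of the 3 organs and its SE in black. Each gene is shown by 1 probe, that with the smallest p. The genes drawn for antigen presentation and for the mitochondrion are lower members, so by choice their probes lie to the left of 0 in all organs. Ifi30, Cox15, Atp5b and Ndufv3, of the same roles but higher in some or all organs, are not drawn. The organs lie farthest apart for S100a9 (0.59 to 2.65) and Lrg1 (0.40 to 2.15).

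Ccnd1 and Cmbl came next after the called genes. Ccnd1, cyclin D1 of the G1 phase, had a mean difference of -0.81 (adjusted p = 0.0596, limma), and Cmbl, a hydrolase, of -0.59 (adjusted p = 0.0597, limma). In both the spleen made up most of it, with -1.72 and -1.20 there, against -0.65 and -0.32 in livers and -0.08 and -0.26 in hearts. Cmtm6, a membrane protein that protects PD-L1 from degradation, differed by 0.32, Aprt, an enzyme of adenine salvage, by 0.42, and Gabarapl2, a protein of the autophagosome membrane, by -0.44 (adjusted p = 0.107 for each, limma). Tmem39a (0.33) and Tmem42 (-0.38) had the same adjusted p, and Tmem39a had its largest difference in livers (0.77), where its groups did not overlap. Smn1, which assembles the ribonucleoproteins of the spliceosome, differed by 0.43, Ccdc126 by 0.39 and Serpinf1, a secreted inhibitor of blood vessel growth, by -0.37 (adjusted p = 0.123 for each, limma). Psmb1, a subunit of the proteasome core, had the most even difference of the named genes, 0.33 in livers, 0.35 in spleens and 0.31 in hearts, with groups separate in livers and hearts (adjusted p = 0.175, limma).

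The larger gene lists gave counts to be read against all tested probes, of which 1583 had a higher and 1943 a lower mean. Of 58 tested cytosolic ribosomal proteins, 52 had a lower mean and 13 were lower in all organs, with medians of 0.03 in livers, -0.30 in spleens and 0.00 in hearts. The median of their mean differences was -0.09. It ran from -0.122 to -0.03 leaving out 1 array and from -0.144 to 0.013 over the other settings. Of 29 splicing factors, 24 had a higher mean, 10 in all organs (median 0.09; Hnrnpll 0.35 from its brighter probe and 0.07 from the other), and of 29 proteasome subunits 21 had a higher mean, 11 in all organs (median 0.03). Of 51 mitochondrial ribosomal proteins 36 had a lower mean (median -0.03; Mrps31 0.25), of 9 extracellular matrix genes 8 (median -0.19; Sparc -0.44, with 0.05 in hearts), and of 6 circadian clock genes 2 (Tef -0.40). ER chaperones, with 8 of 11 higher, had medians of 0.38 in livers, 0.02 in spleens and 0.00 in hearts, and 1 of them had 1 direction in all organs. All 6 tested genes of cholesterol synthesis and uptake had a higher mean, 1 in all organs. Apart from Gsr, H2-Eb1 and H2-T10, no gene of any list was called. Guk1, Srsf9 and Hnrnpab, which served as reference genes for quantitative PCR in the study, had mean differences of -0.05, 0.03 and 0.02.

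**Figure D5:**
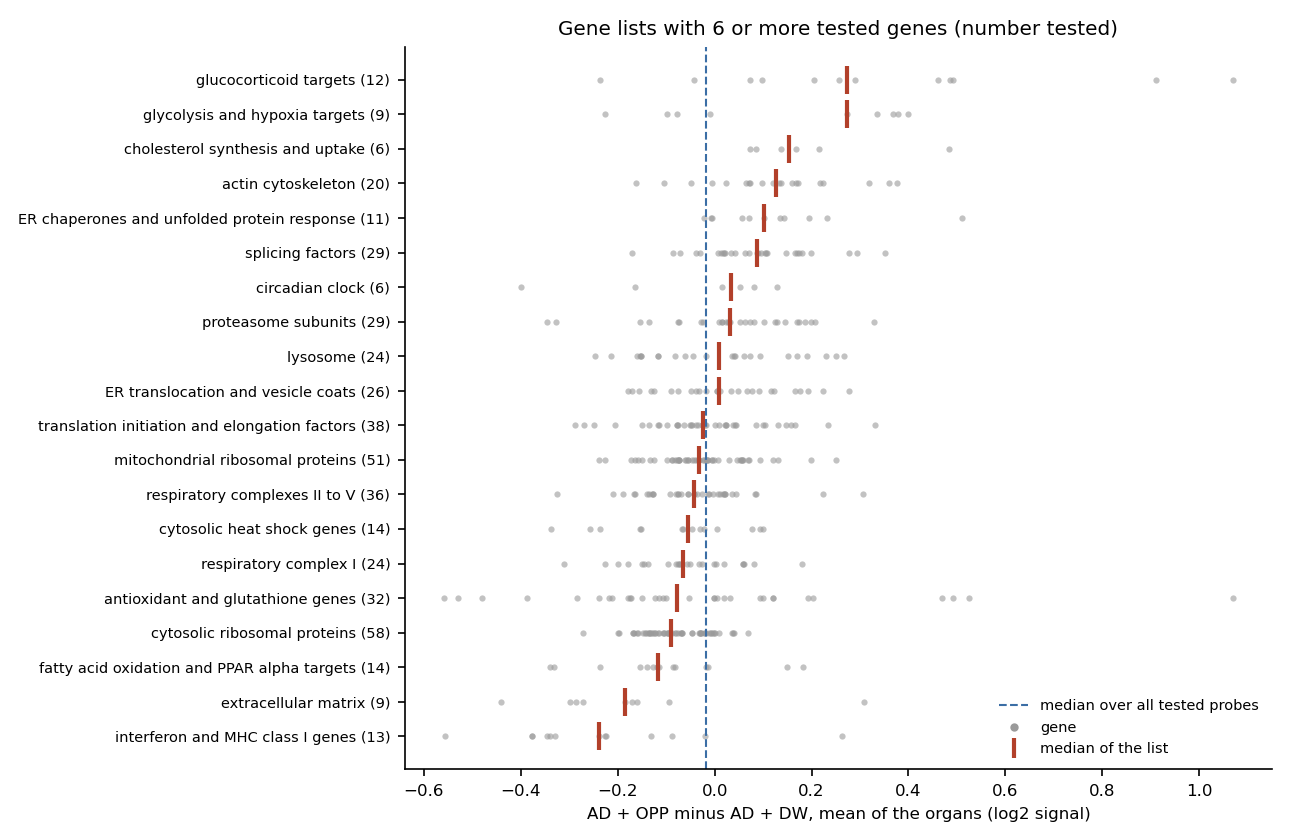
Mean over the 3 organs of the difference between the AD + OPP and the AD + DW group, on the log2 signal scale, for each tested gene (grey) of the lists with 6 or more tested genes; red marks give the median of each list and the dashed line the median over all tested probes (-0.02). Medians lie between -0.24 for interferon and MHC class I genes and 0.27 for glucocorticoid targets and for glycolysis and hypoxia targets, and single genes of every list lie on either side of the dashed line except those of cholesterol synthesis.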

How the data were processed

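The authors hybridised RNA of each organ to Illumina MouseRef-8 arrays and normalized them in BeadStudio 1.5.1.3 by rank-invariant normalization within each organ, after removing arrays that clustered apart. The deposited tables hold a linear signal intensity and a detection p-value for each probe and array; the deposited unnormalized intensity served an alternative. The detection level above 0.99 that the authors required is the detection p-value under 0.01 used here. Array number limits the precision, as no bead counts were used. Signals were floored at 10 and taken to log2. limma 3.58.1 in R 4.3.3 (statmod 1.5.0, 13 residual and 5.2 prior degrees of freedom) fitted the 6 group means over 19 arrays, with Benjamini-Hochberg adjustment over 3529 probes. Python 3.11.15, pandas 2.3.3 and matplotlib 3.10.9 did the rest. On simulated data for this fit, with 200 of 3529 probes changed, 84.5% were recovered at 1.5-fold (9 false calls) and 97.5% at 2-fold (10 false calls). These shares hold for the simulated data and are not the share of real changes that was found. In the real data Serpina3n (mean log2 difference 1.05 ± 0.31, SE) and S100a9 (1.40 ± 0.92) were not called.

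Named genes were members with a gene symbol that were among the 12 with the smallest p in each direction or the 4 with the largest smallest-organ difference, the 3 with the smallest p in each gene list, the antioxidant genes of the study and its PCR reference genes; fewer are printed. Members and lists were chosen with earlier results of these data known. Alternatives changed the normalization, the floor, the detection filter, the model, the replicate block, the arrays and the organs. Same-numbered arrays did not deviate together (r from -0.435 to 0.258 in 9 pairs within organs and -0.212 to 0.204 in 18 pairs between organs), so numbers were not taken to pair arrays. The error model of BeadStudio used by the authors was not used here.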

Additional observations from a re-analysis of the deposited data

Results flagged for a closer look

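The OPP difference of Gsr differed between organs (moderated F test in limma, adjusted p = 0.00902), with 0.18 in livers, 1.37 in spleens and 0.02 in hearts. Among livers of the AD + DW group, replicate 4 stood apart for Serpina3n (38089, against 16200.3 to 17400.0 on the other 3 arrays; gap over range 0.916) and for Smn1 (295, against 226 to 233; gap over range 0.889). Chance sets apart an array in about 1 in 20 groups of this size, and only groups of 4 could be examined, which are the livers of the AD + DW group.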

How the results depend on the processing

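The number of probes called at an adjusted p under 0.05 (7) was 4 with median scaling, 21 with no detection filter, 0 in the additive fit, 34 with array weights and 28 with a variance for each organ. It was 20 without the liver arrays, 0 without the spleen arrays, 4 without the heart arrays and 0 without spleen replicates AD + OPP 1 and AD + DW 3. Leaving out 1 array gave 0 to 56, with 56 without spleen AD + DW 2, 25 without liver AD + OPP 3, 2 without heart AD + DW 3 and 0 in 9 fits: liver AD + OPP 2 and AD + DW 1 and 3, spleen AD + OPP 3 and AD + DW 1 and 3, and heart AD + OPP 1 and 3 and AD + DW 1. With the replicate number as a block within each organ 1 probe was called (141 at an unadjusted p under 0.01), and with it as a random block across organs 9 (161). The labels do not say whether the numbers pair the arrays. The count at an unadjusted p under 0.01 (154) was 479 with no filter and 38 without spleens; after normexp and quantile normalization 115 were higher and 64 lower, against 82 and 72. Members were 17.9% with no filter. Probes separate in all organs (0) were 1 after normexp or median scaling, 2 with detection in 1 group of each organ, 4 with no filter, 2 without both spleen arrays and 0 to 4 leaving out 1 array. Those at p under 0.05 in each organ (0) were 1 with detection in 1 group, 3 with no filter and 0 to 2 leaving out 1 array. They were 0 by a t-test, before and after Benjamini-Hochberg. The authors used a t-test for other measurements, and an error model for the arrays. Probes differing between organs (13) were 30 after normexp, 21 with 16 added, 42 with no filter, 0 without both spleen arrays and 5 to 52 leaving out 1 array.

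Of 58 probes of named genes, 52 kept their sign in every fit. Hnrnpab turned to -0.0081 with array weights, -0.0337 without livers and -0.0219 without both spleen arrays (-0.0266 to 0.048 leaving out 1 array). Without spleens, Tkt was -0.1265, Gstm1 -0.2326, Gpx1 0.0106 and Srsf9 -0.0092, and Gpx1 was 0.0113 without both spleen arrays. Leaving out 1 array, Guk1 ranged from -0.138 to 0.0078 and Srsf9 from -0.0049 to 0.0883. The causes were not tested, other than that fewer arrays or more probes entered some fits. A block by slide was not run, since the column headers name no slide. Arrays number 3 or 4 a group, and dim probes were left out.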
